A study of Mus musculus with 16 samples.

Results

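Interferon-stimulated genes are the genes that cells switch on when interferon binds its receptors, and 50 of them were followed across the 4 groups of B cells. They were taken by symbol from a list written for this purpose, and all 50 were found among the 27928 genes of the table. RNA was sequenced from 2 kinds of splenic B cell, follicular (FO) and marginal zone (MZ), of C57BL/6 mice aged 8 to 12 weeks, with 2 libraries in each group and 8 in all. WT mice carried neither floxed Gtf2i nor Cre, while the cKO mice were Gtf2i fl/fl and carried a Cre made in the B lineage, which deletes Gtf2i, the gene of the transcription factor TFII-I. FO B cells were sorted as CD21lo CD23hi and MZ B cells as CD21hi CD23lo. The design has no Cre-only control, and the labels do not say whether a library was made from 1 mouse or several, so the p-values below measure only the spread between these libraries.

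Type I interferons bind a receptor made of Ifnar1 and Ifnar2, whose kinases Jak1 and Tyk2 start a signal that ends in a complex with Stat2 and Irf9, which binds the interferon-stimulated response element (ISRE) in promoters. The induced proteins sense viral nucleic acids, block steps of viral growth, tag proteins with the ubiquitin-like Isg15, or damp the signal. Many are also made at a low level in resting cells. MZ B cells are a splenic subset that answers blood-borne microbes quickly, and FO B cells are the recirculating subset that makes most T cell-dependent responses.

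The ISRE was searched for as GAAA, any 2 bases and GAAA, on both strands of RefSeq promoters (GRCm38.p6, from 250 bases before to 50 after each gene's start). Of the 38 members with an entry, 21 (55.3%) held a match, against 1079 of all 27025 genes (3.99%). The interferon gamma-activated element, searched for as TTCNNNGAA on both strands, was in 9 of the 38 members (23.7%) and in 9.55% of all genes. No promoter entry was found for Dhx58, Ifi204, Ifi27, Mx1, Mx2, Oas1b, Oas2, Parp14, Parp9, Rtp4, Usp18 and Zbp1. The sequences below are windows of 30 bases before the start of members on which the results turn, given 5′ to 3′ in the direction of the gene with every letter of a match in capitals (a match to the opposite strand reads TTTC, any 2 bases and TTTC). They show the overlapping matches of Isg15 and windows that neighbouring genes of a family share.
Isg15: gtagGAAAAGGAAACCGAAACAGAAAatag
Ifit1: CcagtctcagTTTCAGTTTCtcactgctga
Ifit3: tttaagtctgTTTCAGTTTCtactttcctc
Ifit3b: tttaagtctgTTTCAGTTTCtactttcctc
Gbp3: gacacagTTTCAGTTTCTATTTCccagatc
Gbp7: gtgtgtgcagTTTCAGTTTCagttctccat
Rsad2: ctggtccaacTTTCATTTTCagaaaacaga
Oas1a: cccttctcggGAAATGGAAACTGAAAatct
Oas1g: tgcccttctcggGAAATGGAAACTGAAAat
Trim30a: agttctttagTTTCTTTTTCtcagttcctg
Trim30d: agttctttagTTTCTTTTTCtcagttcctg
The Isg15 window is chr4:156200871-156200900 on the minus strand and holds 3 overlapping matches that begin 78 bases before the start. Ifit1 (chr19:34640794-34640823, plus strand) holds a second match just upstream, whose last letter is the capital C that opens its window. The windows of Ifit3 (chr19:34583397-34583426, plus strand) and Ifit3b (chr19:34607793-34607822, plus strand) share all 30 bases. Those of Oas1a (chr5:120907526-120907555, minus strand) and Oas1g (chr5:120887614-120887643, minus strand) share a run of 28, and those of Trim30a (chr7:104465210-104465239, minus strand) and Trim30d (chr7:104507871-104507900, minus strand) share all 30. Gbp3 lies at chr3:142559992-142560021 and Gbp7 at chr3:142530273-142530302, both on the plus strand, and Rsad2 at chr12:26456553-26456582 on the minus strand. A match describes the letters and does not show that a factor was bound.

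In GENCODE M21 for GRCm38 (the UCSC build mm10), 30 of the 50 members lay in 11 clusters of 2 to 5 members with gaps of at most 1 Mb. Ifit1, Ifit2, Ifit3 and Ifit3b sit together on chromosome 19 (34550694 to 34650009), Gbp2, Gbp3 and Gbp7 on chromosome 3 (142530342 to 142638008), and Oas1a, Oas1b, Oas1g, Oas2 and Oas3 on chromosome 5 (120730333 to 120907521). Isg15 stands alone on chromosome 4 (156199424 to 156200818, minus strand). Mx2 and Oas1b are annotated as polymorphic pseudogenes, and C57BL/6 mice are known to lack working Mx1 and full-length Oas1b protein, so their values describe the transcripts only. Exons of Dtx3l and Parp9, and those of Adar and Chrnb2, overlap on opposite strands. Those of Dhx58, Eif2ak2, Ifi35, Oasl1 and Usp18 also overlap exons of other genes on the opposite strand. Since the counting is not stated to use strand, reads in these overlaps cannot be told apart. Exons of Parp14 and Gm49730 (110 bases) and of Ifi203 and Mndal (37 bases) overlap on the same strand.

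The libraries held 21546552 to 25083552 reads on genes. Gtf2i had normalized counts of 2040 and 1992 in WT FO, 1523 and 1531 in cKO FO, 2864 and 2471 in WT MZ, and 1782 and 1889 in cKO MZ, so in each subset the cKO libraries lay under the WT libraries. Its log2 difference between cKO and WT was -0.40 in FO and -0.54 in MZ (limma adjusted p = 0.989 and 0.363), over the whole gene, which does not separate the deleted exons. Cr2 (CD21) was higher in every MZ library and Fcer2a (CD23) in every FO library, as the sort requires. The Y-linked gene Ddx3y reached no more than 6.34 normalized counts in any WT library and was at least 2682 in each cKO library, and Xist (25929.5 or more in WT) was at most 89.7 in 3 of the 4 cKO libraries and at 14748 in cKO FO replicate 1. Sex-linked transcripts thus differed with the genotype, and effects of sex and of Gtf2i cannot be told apart in any cKO to WT value. In cKO FO replicate 1, Xist occurred together with Y-linked transcripts (Ddx3y 2682, Kdm5d 1083, Uty 415 and Eif2s3y 1545). Whether that library holds cells of several mice was not tested. Through it, sex-linked transcripts also differed between cKO FO and cKO MZ. Their part in FO against MZ in cKO, over both genotypes and in the interaction was not tested. The granulocyte markers summed to 1968 normalized counts in cKO MZ replicate 1 against 23.8 to 109 in the other libraries, and the erythroid markers to 13304 against 25.9 to 1007.

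**Figure D1:**
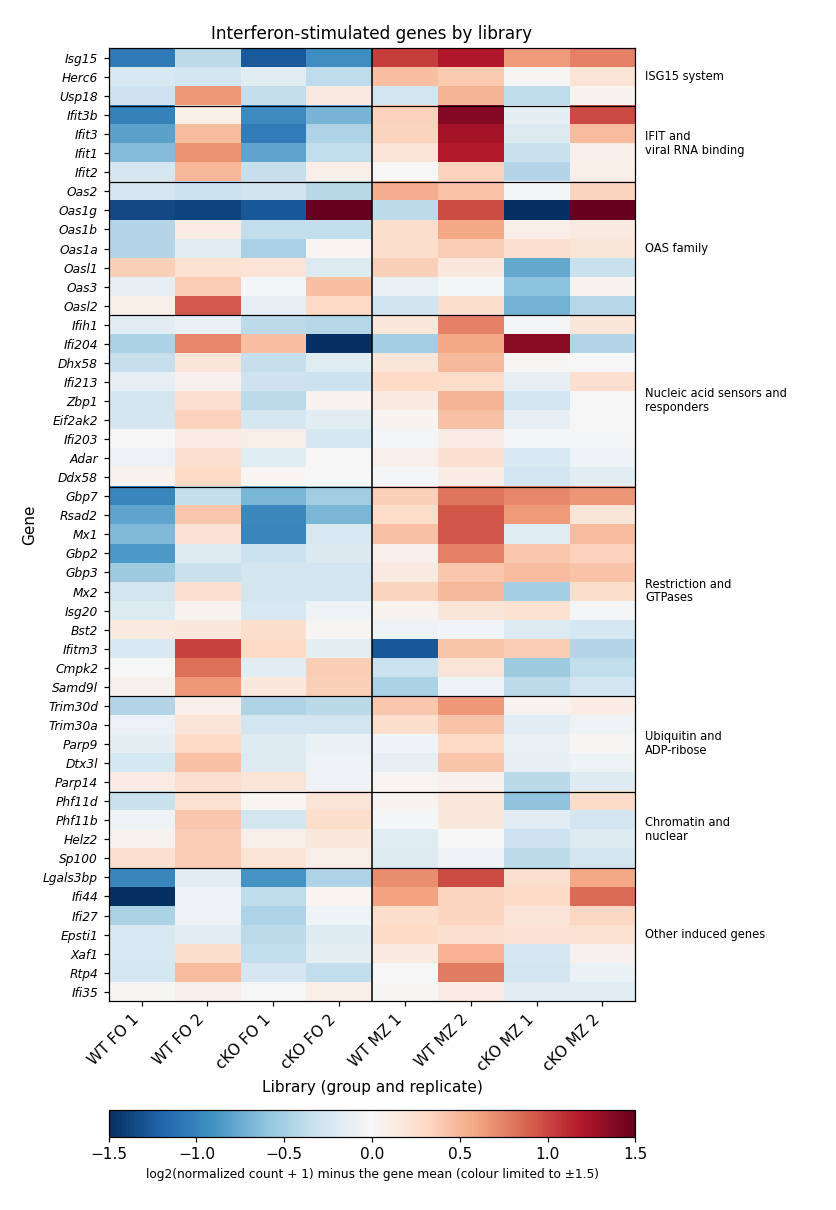
Log2(normalized count + 1) of each of the 50 genes in each library minus the gene's mean over the 8 libraries (colour, limited to ±1.5), with genes grouped by role and ordered within a role by the FO to MZ difference. WT MZ replicate 2 was the highest library for 24 genes and WT FO replicate 2 for 13.

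All 50 members had a mean normalized count of at least 10 and were tested. Levels of different genes were compared as normalized counts per kb of exon, averaged over the 8 libraries. The median member was at 268 per kb against 125 for all 14761 genes tested, and 36 of the 50 lay above that median of all genes. Helz2 (a helicase that acts as a nuclear receptor coactivator) was highest at 2860.4 per kb and Samd9l (a factor that restricts poxviruses) next at 2858. Ifi203 (1546), Sp100 (1536), Ifi27 (1277) and Trim30a (1150.3) followed. At the lower end were Ifi204 (2.98 per kb), Oas1g (4.72) and Ifi44 (7.16), with Oas1g at 0 reads in 1 library and at most 37 in any. The members best known as induced antiviral effectors lay between, with Ifit1 and Rsad2 both at 57.0, Mx1 at 200.4 and Isg15 at 391 per kb.

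The first comparison was of the subsets. Of the 50 members, 11 differed between FO and MZ B cells over both genotypes, 10 of them higher in MZ and 1 higher in FO. The 10 higher in MZ were Isg15, Ifit3b, Gbp2, Gbp3, Gbp7, Mx1, Rsad2, Oas2, Trim30d and Lgals3bp, by 1.53-fold (Trim30d) to 3.51-fold (Isg15), and Samd9l was higher in FO. A gene was called where limma's adjusted p was at most 0.05 and the difference at least 1.5-fold. Of all genes, 10.9% were called higher in MZ and 7.45% higher in FO. The median log2 difference of the members, FO minus MZ, was -0.23, against 0.0045 over all genes, and 34 of 50 were below 0 (49.5% of all genes). In WT alone, 8 members were higher in MZ (7.41% of all genes) and 0 higher in FO (4.62% of all genes), with a median of -0.30 and 35 of 50 below 0 (49.6% of all genes). Both MZ libraries exceeded both FO libraries for 21 members in WT (28.2% of all genes), and the reverse held for 5 (27.2% of all genes). In cKO alone, 4 were higher in MZ (8.18% of all genes) and 0 in FO (5.54% of all genes), with a median of -0.15 and 32 below 0 (49.5% of all genes), and the libraries did not overlap for 24 members higher in MZ (32% of all genes) and 10 higher in FO (33.1% of all genes). At an unadjusted p under 0.05, 20 members differed in either direction in each genotype (30.3% and 33.4% of all genes), and 29 over both (44.1% of all genes). The members called higher in MZ were 20% of the 50 over both genotypes, 16% in WT and 8% in cKO, the last close to the share of all genes. Over both genotypes 12 members had all 4 MZ libraries above all 4 FO libraries (18.6% of all genes) and 4 the reverse (17.9% of all genes). For the 0 higher in FO in each genotype, DESeq2 gave 1 and edgeR 0. A block for the replicate number gave 1 in WT and 2 in cKO. The fit of only the 4 libraries compared gave 0 in WT and 2 in cKO. The medians moved with single libraries. In WT the median was -0.065 without WT FO replicate 1, with 28 of 50 below 0, -0.15 without WT MZ replicate 2 and -0.52 without WT FO replicate 2. In cKO it was between -0.09 (without cKO MZ replicate 2) and -0.23 (without cKO FO replicate 2). Over both genotypes it was between -0.15 (without WT FO replicate 1) and -0.37 (without WT FO replicate 2).

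Isg15, the ubiquitin-like modifier of its own system, had the largest difference of these. It had normalized counts of 116 and 185 in WT FO, 101 and 127 in cKO FO, 497 and 558 in WT MZ, and 376 and 408 in cKO MZ. The FO and MZ libraries did not overlap in either genotype. The log2 difference, FO minus MZ, was -1.84 in WT and -1.78 in cKO (SE 0.24 each, limma adjusted p = 0.00218 and 0.00214), and it was called in each of 16 alternatives in WT. Herc6, the mouse ligase that attaches Isg15 to proteins, had normalized counts of 880.2 and 855 in WT FO, 929 and 795 in cKO FO, 1427 and 1368 in WT MZ, and 1053 and 1194 in cKO MZ. It was called higher in MZ in WT (-0.69, SE 0.11, limma adjusted p = 0.00612), while in cKO its difference of -0.38 (limma adjusted p = 0.0502) was under 1.5-fold. Usp18, which removes Isg15 from proteins and blocks signaling at Ifnar2, was at 253 and 494 in WT FO, 246 and 346 in cKO FO, 257 and 450.1 in WT MZ, and 242 and 323 in cKO MZ. Its libraries overlapped in every comparison, and its log2 difference between subsets was 0.06 in each genotype.

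The IFIT proteins bind viral RNA ends and stop their translation. Ifit3b had normalized counts of 27.9 and 61.8 in WT FO, 29.1 and 35.2 in cKO FO, 73.2 and 151 in WT MZ, and 51.8 and 115 in cKO MZ. It was called over both genotypes (-1.28, SE 0.38, limma adjusted p = 0.0349), although cKO MZ replicate 1 was below WT FO replicate 2. Ifit3 had 184 and 447 in WT FO, 155 and 233 in cKO FO, 405 and 762 in WT MZ, and 278 and 445 in cKO MZ, a difference of -0.92 (limma adjusted p = 0.0715). Ifit1 was at 86.8 and 219 in WT FO, 78.4 and 106 in cKO FO, 156 and 313 in WT MZ, and 108 and 144 in cKO MZ (-0.56 over both genotypes). Ifit3 and Ifit3b are close paralogs, and how the counting assigned reads that both could give was not tested, so their separate values are uncertain. Ifit2, the neighbour of these genes on chromosome 19, did not share their direction over both genotypes (0.006).

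The 3 guanylate-binding proteins among the members, GTPases that attack the membranes around intracellular pathogens, were all higher in MZ over both genotypes. Gbp7 had normalized counts of 444 and 684 in WT FO, 545 and 613 in cKO FO, 1125 and 1535 in WT MZ, and 1454 and 1390.0 in cKO MZ. The subsets did not overlap, and the difference was -1.25 in WT and -1.30 in cKO (SE 0.22 each, limma adjusted p = 0.00801 and 0.00604). Gbp3 had 1527 and 1755 in WT FO, 1833 and 1811 in cKO FO, 2433 and 2923 in WT MZ, and 3048 and 2972 in cKO MZ, a difference of -0.70 in WT and -0.72 in cKO (limma adjusted p = 0.0056 and 0.00436). Gbp2 had 371 and 591 in WT FO, 541 and 583 in cKO FO, 716 and 1143 in WT MZ, and 897 and 861 in cKO MZ. It was called in WT (-0.95, limma adjusted p = 0.0452) and over both genotypes (-0.80, limma adjusted p = 0.0133), and in cKO was at -0.65 (limma adjusted p = 0.128).

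Among the other restriction factors, Mx1 (a dynamin-like GTPase against influenza-type viruses) had normalized counts of 443 and 812 in WT FO, 354 and 593 in cKO FO, 949 and 1336 in WT MZ, and 618 and 962 in cKO MZ. Over both genotypes it was higher in MZ (-0.83, SE 0.26, limma adjusted p = 0.0434), with cKO MZ replicate 1 below WT FO replicate 2. Rsad2 (viperin, which makes a chain-terminating nucleotide) had 129 and 295 in WT FO, 114 and 139 in cKO FO, 272 and 427 in WT MZ, and 349 and 254 in cKO MZ (-1.02, SE 0.28, limma adjusted p = 0.0262). In cKO its subsets were apart, and in WT replicate 2 of FO exceeded replicate 1 of MZ. Mx2 was at 322 and 465 in WT FO, 324 and 323 in cKO FO, 493 and 547 in WT MZ, and 277 and 471 in cKO MZ (-0.29, limma adjusted p = 0.268). Samd9l was the member called higher in FO, with 15733 and 23602 in WT FO, 16696 and 19214 in cKO FO, 10823 and 14324 in WT MZ, and 11443 and 12261 in cKO MZ. Each FO library was above each MZ library, and the difference over both genotypes was 0.61 (SE 0.15, limma adjusted p = 0.0144). Bst2 (tetherin, which holds budding virus at the membrane) lay the same way at a smaller size, with 743 and 751 in WT FO, 811 and 682 in cKO FO, 637 and 652 in WT MZ, and 585 and 558 in cKO MZ (0.30, limma adjusted p = 0.0248). Ifitm3, which blocks viral fusion, was at 40.9 and 98.0 in WT FO, 59.3 and 43.3 in cKO FO, 19.3 and 64.3 in WT MZ, and 62.8 and 35.1 in cKO MZ, with overlapping libraries throughout.

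The OAS enzymes make the 2-5A that activates RNase L, and their members did not all lie in the same direction. Oas2 had normalized counts of 1255 and 1203 in WT FO, 1223 and 1121 in cKO FO, 2192 and 2014 in WT MZ, and 1482 and 1884 in cKO MZ. It was higher in MZ in WT (-0.77, SE 0.13, limma adjusted p = 0.00612) and over both genotypes (-0.64, limma adjusted p = 0.00133), and in cKO its difference of -0.51 (limma adjusted p = 0.0271) was under 1.5-fold. Oas1a was at 210 and 256 in WT FO, 203 and 292 in cKO FO, 343 and 368 in WT MZ, and 339 and 324 in cKO MZ, apart in every library but at -0.53, under 1.5-fold (limma adjusted p = 0.0227). Oasl2, Oas3 and Oasl1 had differences above 0 over both genotypes (0.59, 0.35 and 0.29). Oas1g, with at most 37 reads, was at 37.2 and 36.1 normalized counts in the cKO FO and cKO MZ libraries numbered 2 and at 0 to 9.06 in the other 6.

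Of the sensors and responders, 8 of 9 had log2 differences below 0 over both genotypes and 0 were called. Ifih1 (MDA5, a sensor of long double-stranded RNA) had normalized counts of 154 and 160 in WT FO, 130 and 127 in cKO FO, 193 and 290 in WT MZ, and 169 and 195 in cKO MZ. Its FO and MZ libraries did not overlap, and its difference of -0.54 was under 1.5-fold (limma adjusted p = 0.0291). Ddx58 (RIG-I, the sensor of short RNA with a 5′ triphosphate) was the exception at 0.19 (limma adjusted p = 0.0957). Zbp1 (a sensor of Z-form nucleic acid), Eif2ak2 (PKR, which halts translation on double-stranded RNA) and Adar (which edits it) were at -0.19, -0.18 and -0.01, and Ifi203, of the p200 family on chromosome 1, at -0.03. Trim30d, an E3 ligase family member, had 1105 and 1592 in WT FO, 1099.5 and 1136 in cKO FO, 1995 and 2367 in WT MZ, and 1558 and 1622 in cKO MZ, and was called in WT (-0.71, limma adjusted p = 0.0262) and over both genotypes (-0.61, limma adjusted p = 0.00627), although WT FO replicate 2 exceeded cKO MZ replicate 1. Lgals3bp, a secreted galectin-binding glycoprotein, had 420.1 and 744 in WT FO, 447 and 601 in cKO FO, 1341 and 1633 in WT MZ, and 977 and 1234 in cKO MZ. It was higher in MZ, at -1.40 in WT and -1.08 in cKO (SE 0.28 each, limma adjusted p = 0.0129 and 0.0309). The 4 chromatin and nuclear members, Sp100, Helz2, Phf11b and Phf11d, had differences from 0.06 to 0.46, none of them past 1.5-fold. Over both genotypes Isg15, Gbp3, Gbp7 and Lgals3bp were called whichever library was left out, while Ifit3b and Mx1 each lost their call on leaving out any single one of 5 libraries, Rsad2 and Samd9l any one of 4, and Gbp2 and Trim30d any one of 2, and Oas2 without cKO MZ replicate 2. In WT the 8 calls became 4 without WT MZ replicate 2 and 13 without WT FO replicate 2.

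**Figure D2:**
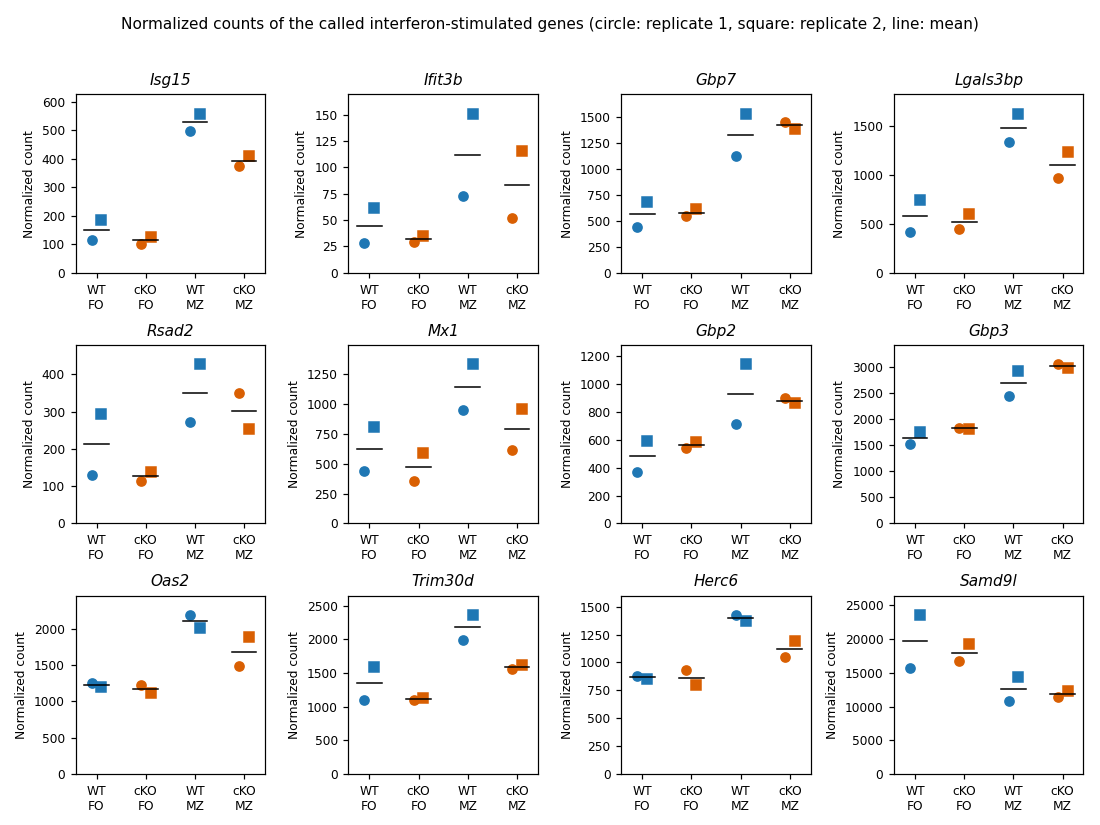
Normalized counts of the 12 genes called in at least 1 comparison of FO with MZ B cells, by group (blue WT, orange cKO; circle replicate 1, square replicate 2; the line is the mean of 2 libraries, and each axis starts at 0). Isg15, Gbp3, Gbp7 and Lgals3bp are the 4 genes called in both genotypes.

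The order of the members between subsets was alike in the genotypes. Across the 50 members the difference FO minus MZ in WT and that in cKO, which share no library, had a Pearson's r of 0.755 and a Spearman's rho of 0.803, and 43 had the same sign. Without Oas1g, r was 0.881. The members share libraries and normalization, so these are descriptions. In the test of the interaction, the cKO to WT difference in MZ minus that in FO, limma called 0 members and 0% of all genes, and DESeq2 and edgeR called 0 members. At an unadjusted p under 0.05 there were 0 members in limma (0.637% of all genes). The median interaction was -0.11, with 39 of 50 below 0 (52.7% of all genes), and it turned above 0 without WT FO replicate 1 (0.12, with 37 above 0), WT MZ replicate 2 (0.025) or cKO MZ replicate 1 (0.002). Of the members called in WT, Herc6, Gbp2, Oas2 and Trim30d were not called in cKO, and their interactions were -0.30, -0.30, -0.26 and -0.20 (SE 0.16, 0.37, 0.18 and 0.24).

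**Figure D3:**
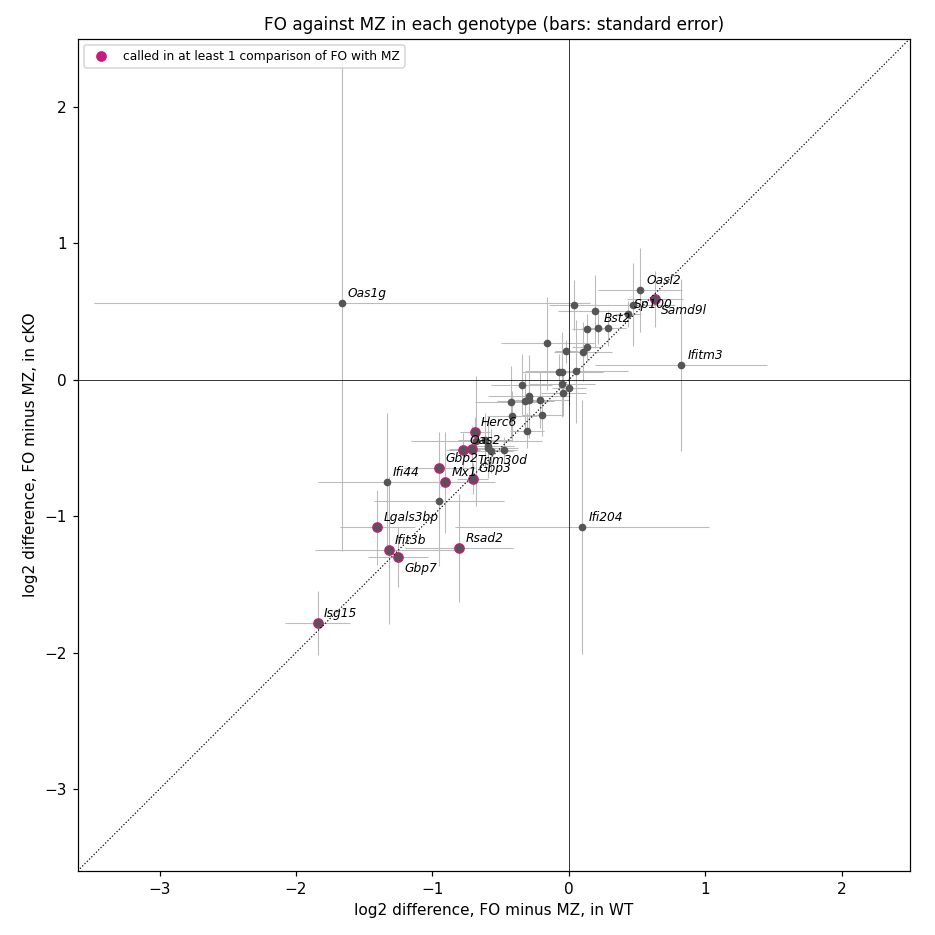
Log2 difference FO minus MZ of each of the 50 genes in WT (horizontal axis) and cKO (vertical axis), with standard errors as bars and equality as the dotted line. Isg15 lies lowest on both axes (-1.84 and -1.78), and Oas1g and Ifi204 lie far from the line with wide bars.

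Markers of other cells moved with subset in part. The plasmacytoid dendritic cell list summed to 5317 to 5953 normalized counts in the FO libraries and 7704 to 9057 in the MZ libraries, of which Tcf4, also expressed by B cells, made up 4601 to 8025 in each library, while the defining marker Siglech was at 4.99 to 55.2. The macrophage list, all 10 of which were in the table, summed to 600 to 1060.3 in FO and 682 to 1521 in MZ. Its genes did not all move alike. Cd68 was at 173 to 221 in FO and 283 to 384 in MZ, while Adgre1 was at 81.5 to 216 and 53.0 to 160. The part of these markers in the differences of the members was not tested. In these bulk samples, fewer cells that express a gene and less of its RNA per cell cannot be told apart.

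The second comparison was of the genotypes. Limma called 0 of the 50 members in either direction in FO, in MZ or over both subsets, where it called 0.0542% of all genes higher and 0.0135% lower in cKO in FO, 0.0339% and 0% in MZ, and 0.0948% and 0.0135% over both. At an unadjusted p under 0.05, 1 member differed in FO, 8 in MZ and 11 over both subsets (2.59%, 4.04% and 6.63% of all genes). EdgeR called 0 members in all 3. DESeq2 called 1, Oasl1, lower in cKO in MZ (0.112% of all genes) and 0 in the others. The median log2 difference of the members, cKO minus WT, was -0.18 in FO (all genes -0.0099), -0.28 in MZ (all genes -0.015) and -0.23 over both (all genes -0.012), and 40, 45 and 44 of 50 were below 0 (52.5%, 53.1% and 53.5% of all genes). Without WT FO replicate 2 the median was 0.05 in FO and -0.12 over both, where 37 of 50 were below 0. Without WT MZ replicate 2 it was -0.16 in MZ, with 37 below 0. Without WT FO replicate 1 it was -0.40 in FO.

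In MZ B cells each cKO library lay under each WT library for 29 of the 50 members (58%, against 18.7% of all genes), and over them for 1, Gbp3 (15.8% of all genes). These 29 were 7 of the 9 sensors and responders, 5 of 7 OAS genes, 5 of 7 other induced genes, 3 of 4 chromatin and nuclear genes, 3 of 5 ubiquitin and ADP-ribose genes, 2 of 3 genes of the Isg15 system, 3 of 11 restriction factors and GTPases and 1 of 4 IFIT genes. In FO B cells cKO was below both WT libraries for 6 (12%, against 13.1% of all genes), Ddx58, Ifi213, Ifih1, Oasl1, Sp100 and Trim30a, and above for 2, Gbp3 and Oas1g (10.9% of all genes). Oas1g had 1 read in cKO FO replicate 1 and in each WT FO library, so its place there is set by the scaling of the libraries and is no separation. The share in FO was thus close to that of all genes. In both subsets cKO was below WT for 5, Ddx58, Ifi213, Oasl1, Sp100 and Trim30a (5.46% of all genes), and above for 1, Gbp3 (3.88% of all genes).

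Oasl1, an OAS-like protein without enzyme activity that inhibits translation of Irf7, had normalized counts of 1285 and 1175 in WT FO, 1153 and 868 in cKO FO, 1281 and 1118 in WT MZ, and 587 and 793 in cKO MZ. In each subset both cKO values lay under both WT values, with a difference of -0.81 in MZ (95% interval -1.24 to -0.38, limma adjusted p = 0.691) and of -0.30 in FO (-0.72 to 0.13, limma adjusted p = 1). Over both subsets it was at -0.55 (limma adjusted p = 0.42). The DESeq2 adjusted p in MZ was 0.0307. Trim30a, which limits signaling by Toll-like receptors, had 4387 and 5323 in WT FO, 3855 and 3860.1 in cKO FO, 5592 and 6267 in WT MZ, and 4132 and 4414 in cKO MZ. Its differences were -0.32 in FO (-0.58 to -0.07) and -0.47 in MZ (-0.73 to -0.21, limma adjusted p = 0.782), and its -0.40 over both subsets had the smallest p of the members (limma adjusted p = 0.241). None of these 3 differences of Trim30a passed 1.5-fold. The intervals are per gene and are not adjusted for the number of genes.

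The remaining members with the 5 smallest unadjusted p-values below 0 were Parp14, Herc6 and Trim30d in MZ, Ifi213, Rsad2 and Sp100 in FO, and Trim30d, Ifi213 and Parp14 over both subsets. Parp14, a mono-ADP-ribosyltransferase, had normalized counts of 6014 and 6533 in WT FO, 6305 and 5323 in cKO FO, 5635 and 5786 in WT MZ, and 4162 and 4829 in cKO MZ (-0.35 in MZ, limma adjusted p = 0.998). Ifi213, a p200 family gene, had 3301 and 3763 in WT FO, 2895 and 2867 in cKO FO, 4397 and 4334 in WT MZ, and 3293 and 4218 in cKO MZ (-0.29 in FO, limma adjusted p = 1). Neither passed the test. Sp100, of the nuclear bodies named after PML, had 13471 and 14823 in WT FO, 13138 and 12285 in cKO FO, 9938 and 11009 in WT MZ, and 8736 and 9449 in cKO MZ (-0.15 in FO and -0.20 in MZ). The members with differences above 0 and the smallest p were Gbp3 (0.15 in FO, 0.17 in MZ), Gbp2 (0.26 in FO) and Gbp7 (0.11 in MZ), the GTPases, and Ifi44, Oas1g, Phf11d, Ifitm3 and Ifi204. Those other than Gbp3 went below 0 in at least 1 of the genotype comparisons when a single library was left out. Gbp3 kept cKO and WT apart in both subsets, and its 95% interval over both subsets was -0.02 to 0.35.

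Among the representatives of each role, Ifit1 was at -0.59 in FO and -0.82 in MZ, the lowest log2 difference of the 50 in MZ (95% interval -1.93 to 0.29), and Ifit3 was at -0.59 and -0.66 (-1.76 to 0.45 in MZ). Isg15 was at -0.37 and -0.43, Mx1 at -0.39 and -0.55, Mx2 at -0.26 and -0.52, and Rsad2 at -0.63 and -0.20. Usp18 was at -0.28 in both subsets, Ifih1 at -0.29 and -0.38, Ddx58 at -0.16 and -0.27, Zbp1 at -0.16 and -0.47, Eif2ak2 at -0.24 and -0.30, and Adar at -0.17 and -0.30. Nearer 0 were Oas1a (0.07 and -0.10), Oas2 (-0.07 and -0.33), Bst2 (-0.01 and -0.17) and Ifi203 (-0.14 and -0.08). The 4 IFIT genes had the lowest median of any role in MZ, -0.55, and the 11 restriction factors and GTPases the median nearest 0, -0.07. Ifi204 went from -0.75 in FO to 0.43 in MZ, where its highest value, 23.9, was in cKO MZ replicate 1, the library with the high granulocyte and erythroid sums.

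**Figure D4:**
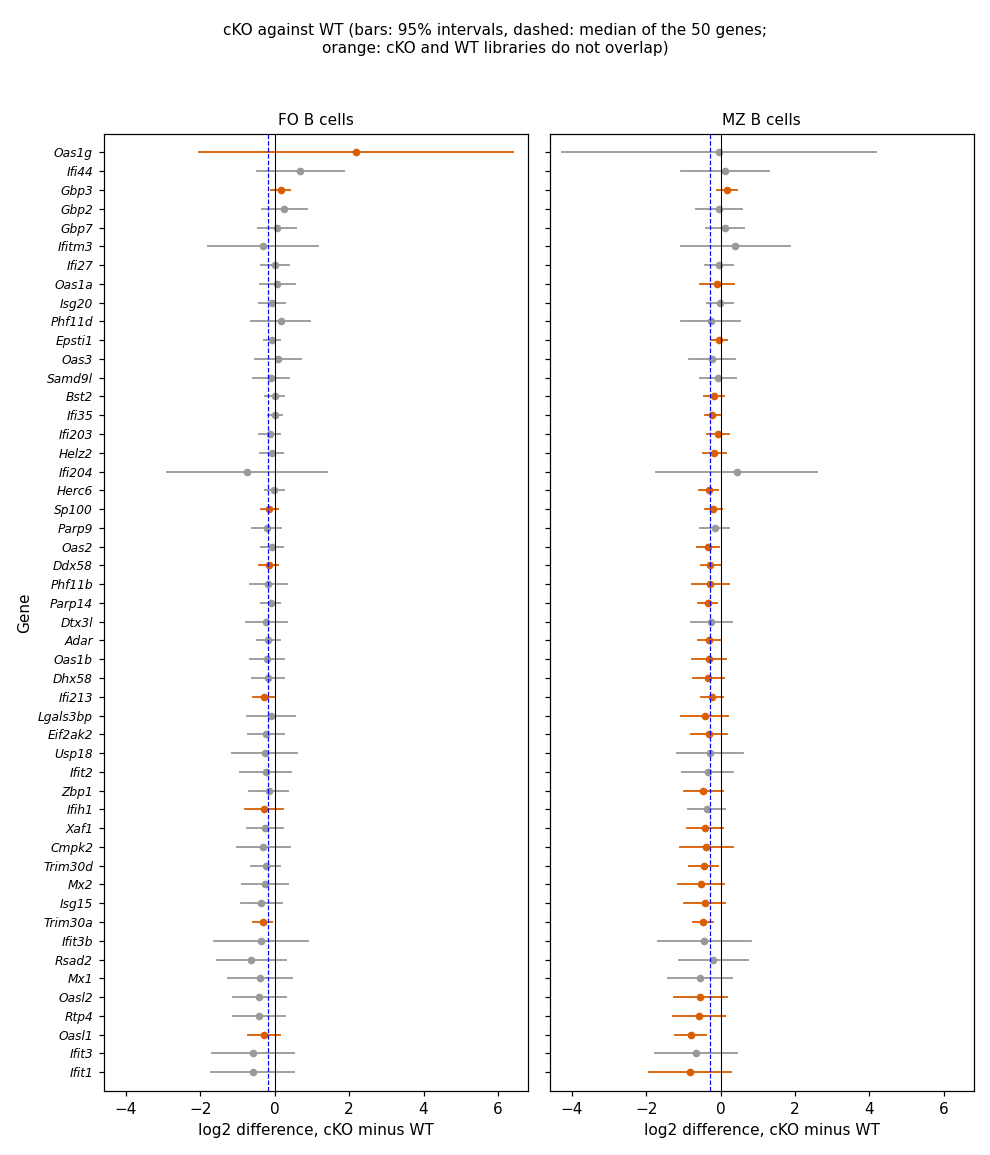
Log2 difference cKO minus WT of each of the 50 genes in FO (left) and MZ B cells (right), with 95% intervals as bars and the median of the 50 as the dashed line (-0.18 and -0.28). Orange marks genes whose cKO and WT libraries do not overlap, 8 in FO (of which Oas1g only by the scaling of single reads) and 30 in MZ.

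The WT libraries numbered 2 were high in most members, and the values of cKO against WT moved when they were left out. In WT FO, replicate 2 exceeded replicate 1 for 46 of 50 members (52.9% of all genes), with a median log2 difference of 0.53, and for 20 members by at least 1.5-fold (10.2% of all genes). In WT MZ it was higher for 44 (51.2% of all genes), with a median of 0.27 and 11 past 1.5-fold (9.98% of all genes), and 43 were higher in replicate 2 of both subsets (38.6% of all genes). In cKO FO and cKO MZ the counts were 35 and 39 (50.9% and 52.4% of all genes), with medians of 0.16 and 0.13, and 3 and 7 members were past 1.5-fold (6.7% and 5.5% of all genes). A WT library numbered 2 was the highest of the 8 for 37 members. Without WT FO replicate 2, the median cKO to WT difference in FO was 0.05, with 31 of 50 members above 0, and without WT FO replicate 1 it was -0.40. Without WT MZ replicate 2 the median in MZ was -0.16 and without WT MZ replicate 1 it was -0.41, with 37 and 48 members below 0. The direction of the members' median in FO thus depended on WT FO replicate 2, while in MZ it stayed below 0 whichever library was left out.

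Markers of other cells differed between the same WT libraries. The macrophage list summed to 600 normalized counts in WT FO replicate 1 and 885 in replicate 2, and to 682 and 1475 in WT MZ. Within it Cd68 went the opposite way, at 221 and 173 in WT FO and 378 and 283 in WT MZ. The 4 NK cell markers summed to 107 and 259 in WT FO and to 57.8 and 213 in WT MZ. Siglech was at 4.99 and 36.2 in WT FO and at 17.3 and 55.2 in WT MZ. The erythroid list summed to 25.9 and 180 in WT FO and to 93.4 and 328 in WT MZ. The conventional dendritic list was also higher in replicate 2 of both subsets, and the granulocyte list was lower. Of the former, Itgax was at 20.0 and 85.6 in WT FO and at 64.5 and 215 in WT MZ. Cd209a, Clec9a and Batf3 were also higher in replicate 2 of both subsets, while Zbtb46, Xcr1 and Flt3 were lower. The T cell list was higher too, mostly through Lck, at 1030 and 1226 in WT FO and 864 and 1170 in WT MZ. Its other markers held at most 43 reads in any library. The plasma cell list summed to 32522 and 14865 in WT FO and to 41216 and 20373 in WT MZ, mostly through Irf4, which B cells also express, at 28655 and 10907 and at 37342 and 13512. Of its other markers, Jchain went the opposite way, at 619 and 968 in WT FO and 305 and 3692 in WT MZ. Sdc1 did so too, at 331 and 392 in WT FO and 27.0 and 101 in WT MZ. Prdm1 and Xbp1 were lower in replicate 2 of both subsets, as the sum was. The part of all these markers in the higher values of the members was not tested.

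**Figure D5:**
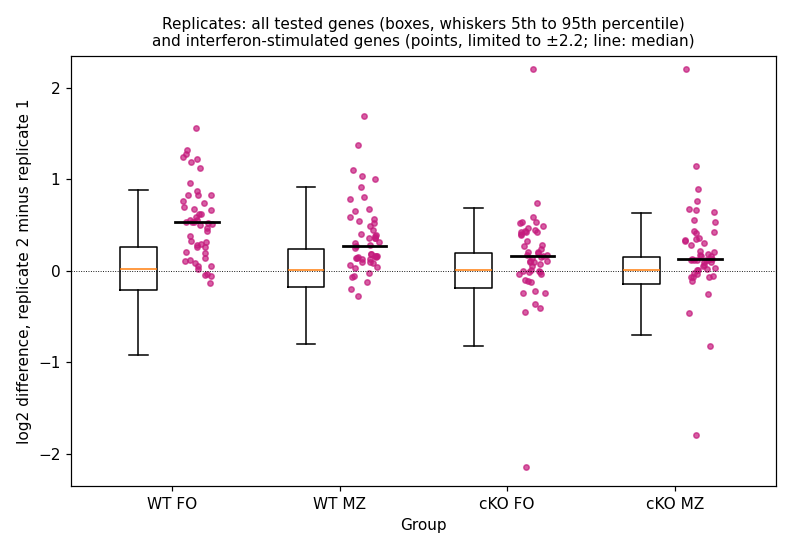
Log2 difference of replicate 2 minus replicate 1 in each group, for all 14761 genes tested (boxes, quartiles with whiskers from the 5th to the 95th percentile) and for the 50 interferon-stimulated genes (points, limited to ±2.2, with their median as a line). The medians of the 50 are 0.53 and 0.27 in the WT libraries of FO and MZ and 0.16 and 0.13 in those of cKO, and those of all genes are near 0.

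The rest of the pathway was read from 80 further listed symbols, of which 54 were tested. In the genotype comparisons 0 of the 54 were called. Between the subsets over both genotypes, 11 were called with a higher level in FO and 10 with a higher level in MZ (7.45% and 10.9% of all genes, the background for each list below). Of the ligands, Ifng and Ifnk were at no more than 11.2 normalized counts in any library and were not tested. The other ligands listed, among them Ifnb1, had no entry among the 27928 genes of the table. The receptor chain Ifnar1 had normalized counts of 4576 and 4882 in WT FO, 4363 and 4761 in cKO FO, 2622 and 2913 in WT MZ, and 2577 and 2581 in cKO MZ. It was higher in FO (0.80, SE 0.064, limma adjusted p = 0.000103), opposite in direction to Isg15, while Ifnar2 (-0.05), Ifngr1 (0.20) and Ifngr2 (0.36) were under 1.5-fold. Ifnlr1, the lambda interferon receptor, was also higher in FO (1.98, limma adjusted p = 0.000278), with 28.9 to 49.8 in the MZ libraries and 109 to 162 in the FO libraries.

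Of the kinases and factors, 5 of 11 were called higher in FO (7.45% of all genes) and 0 lower (10.9%). Jak1 and Jak2, the receptor kinases, were at 0.74 and 0.68 (limma adjusted p = 0.000177 and 0.00129). Irf1 and Irf2, which bind the same element, were at 0.62 and 0.95 (limma adjusted p = 0.0005 and 7.1e-05), and Irf7, the factor that amplifies type I interferon, at 0.74 (limma adjusted p = 0.00255). Irf7 had normalized counts of 1902 and 1970 in WT FO, 1570 and 1679 in cKO FO, 1234 and 1606 in WT MZ, and 692 and 928 in cKO MZ. Its cKO libraries were below the WT libraries in each subset, with differences of -0.25 in FO and -0.81 in MZ (95% interval -1.20 to -0.42, limma adjusted p = 0.526). Stat2 (-0.09) and Irf9 (0.20), which act together at the ISRE, did not pass the test between subsets, and between genotypes they were at -0.20 and -0.29 over both subsets without a call. Of the inhibitors, Samhd1, an enzyme that depletes nucleotides, was at 1.18 (limma adjusted p = 0.000218) and Socs3 at 0.76 (limma adjusted p = 0.0132), both higher in FO.

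Upstream of interferon, 4 of 10 sensing genes were higher in MZ (10.9% of all genes) and 1 in FO (7.45%). Tlr3, the endosomal sensor of double-stranded RNA, had normalized counts of 115 and 148 in WT FO, 118 and 117 in cKO FO, 1291 and 1298 in WT MZ, and 1147 and 997 in cKO MZ (-3.24, SE 0.11, limma adjusted p = 2.46e-06). Ikbke, a kinase that phosphorylates Irf3 and Irf7, was at -1.54 (limma adjusted p = 1.53e-05), Tlr7, the sensor of single-stranded RNA, at -1.32 (limma adjusted p = 0.00188), and Ticam1, the Tlr3 adaptor, at -0.65 (limma adjusted p = 0.00229). Cgas, the cytosolic DNA sensor, was higher in FO (1.60, limma adjusted p = 0.0102) at a low level of 12.4 to 96.8 normalized counts. Of the 20 tested targets known mainly for interferon gamma, 6 were higher in MZ (10.9% of all genes) and 1 higher in FO (7.45%). The 6 were Gbp5 (-0.72), Gbp6 (-0.68), Gbp8, Gbp10 (-1.34), Cxcl10 (-1.15) and Cd274 (-1.17), of which Gbp10 and Cxcl10 were at 4.03 to 36.2 normalized counts. Ciita, the activator of MHC class II genes, was at 0.75 (limma adjusted p = 0.00104). Gbp8 had the largest of these differences, -2.07 (SE 0.13, limma adjusted p = 3.19e-05), with 105 to 159 normalized counts in the FO and 455 to 598 in the MZ libraries. In WT alone Nlrc5, the activator of MHC class I genes, was also called (-0.62, limma adjusted p = 0.0294).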

How the data were processed

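The authors depleted total RNA of ribosomal RNA, sequenced single reads of 50 bases, aligned them with HISAT2 to mm10, counted them on genes with featureCounts and htseq-count, and deposited 1 table of normalized counts (signal, in which DESeq2 size factors scale the reads of each library). Versions are not given in the sources used here. The table held 27928 genes after 256343 blank lines were left out, and whole reads were recovered for 100% of values (within 0.01 read or 1e-06 of the value). Libraries held 21546552 to 25083552 reads on genes. The 2 libraries per group limit the precision, as does counting error for members with few reads (Oas1g 0 to 37 per library, Ifi204 2 to 24, Ifi44 12 to 70, Ifitm3 20 to 103).

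For the 14761 genes averaging 10 or more, limma 3.58.1 (R 4.3.3; lmFit, then eBayes with a trend) was run on log2(normalized count + 1), all 8 libraries in 1 fit of the 4 group means. P-values were adjusted over all genes (Benjamini-Hochberg). A call needed an adjusted p no higher than 0.05 and a difference of 1.5-fold or more. Log2 differences are on this scale, which makes those of low genes smaller. An exact permutation test of 2 against 2 libraries cannot reach 0.05. Alternatives were a pseudocount of 0.5, no filter, quantile normalization, DESeq2 1.42.0 and edgeR 4.0.16 (quasi-likelihood) on recovered reads, a fit of the 4 libraries compared alone, a block for the replicate number, no fold cutoff, and each library left out. The script was tested on simulated data. Exon lengths and coordinates are from GENCODE M21 (27872 identifiers matched).

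The members and lists were chosen with earlier results of these data known. Named with values were each member called, the 5 members above and the 5 below 0 whose p was lowest in a comparison of genotypes, representatives of each role, the receptors, Stat2, Irf9 and Irf7, each pathway gene called, and the members at the ends of the range per kb. Values of 1 further gene of the pathway list are not reported here. The 8 ATAC-seq samples were not analysed here.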

Additional observations from a re-analysis of the deposited data

How the results depend on the processing

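The sign of the median of the 50 genes was the same as reported in each comparison under the pseudocount of 0.5, no filter, quantile normalization, the fit of the 4 libraries compared (not run over both subsets or genotypes, which use all 8), the replicate block, DESeq2 and edgeR. The counts of calls moved. FO against MZ in WT gave 8 calls, 3 with only the 4 libraries compared, 14 with the replicate block, and 4 (without WT MZ replicate 2) to 13 (without WT FO replicate 2) with a library left out. FO against MZ in cKO gave 4 calls, 8 with the 4 libraries compared, 7 without the fold cutoff, 10 with the replicate block, and 2 (without cKO FO replicate 1) to 6 with a library left out. Over both genotypes the 11 calls became 22 without the fold cutoff and 7 (without cKO MZ replicate 1) to 16 (without WT FO replicate 2) with a library left out. Gbp2 and Trim30d lost their call in WT without 6 of the libraries, each in turn, and Gbp3 and Lgals3bp without WT MZ replicate 2. In cKO, Gbp7 lost it without cKO FO replicate 1 or cKO MZ replicate 1, and Lgals3bp on leaving out any one of the 4 cKO libraries. Over both genotypes Samd9l lost it on leaving out WT FO replicate 2, WT MZ replicate 1, cKO FO replicate 2 or cKO MZ replicate 1. In cKO against WT in MZ, DESeq2 called 1 member, and the counts were 0 under every other alternative and in FO and over both subsets.

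With a library left out, the median interaction lay between -0.35 (without WT FO replicate 2) and 0.12 (without WT FO replicate 1). Some uncalled differences of cKO against WT turned below 0 without a library named in brackets. The ranges are over the fits with a library left out, each in turn. In FO, Gbp2 ranged from -0.074 to 0.60, Ifi44 from -0.086 to 1.47 and Phf11d from -0.11 to 0.45 (WT FO replicate 1). In MZ, Gbp7 ranged from -0.11 to 0.34 (WT MZ replicate 1), Ifi204 from -0.47 to 1.33 and Ifitm3 from -0.45 to 1.24 (WT MZ replicate 1 or cKO MZ replicate 1), and Ifi44 from -0.17 to 0.39 (WT MZ replicate 2 or cKO MZ replicate 2). Over both subsets, Gbp2 ranged from -0.059 to 0.28 and Gbp7 from -0.064 to 0.25 (WT FO replicate 1 or WT MZ replicate 1), and Oas1g from -0.23 to 2.38 (cKO MZ replicate 2). Apart from fits with fewer libraries and the cutoff, the cause was not tested.

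The labels do not say that replicate numbers pair the libraries. The deviations of same-numbered libraries correlated at 0.59 between WT FO and WT MZ over all genes, but at -0.30 between WT MZ and cKO MZ and at -0.0015 between cKO FO and cKO MZ, so the numbers were not treated as pairs. Over the 50 genes alone the correlation was 0.54 between WT FO and WT MZ and 0.89 between cKO FO and cKO MZ (0.67 without Oas1g). With the cKO MZ numbers exchanged, a choice made after seeing the data, the block gave 12 calls for FO against MZ in WT, 7 in cKO and 14 over both genotypes.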
